A study of Mus musculus with 18 samples.

Results

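Pvt1, Tug1, Gt(ROSA)26Sor and 2310065F04Rik are 4 long non-coding RNAs (lncRNAs) of the mouse, among 35527 gene names on a single-colour Agilent array. Every non-control probe that carried 1 of these names was taken, which gave 7 probes of the 55681 on the array. Pvt1 had 2, Tug1 had 3, Gt(ROSA)26Sor had 1 and 2310065F04Rik had 1. Myofibers of EDL and TA, which are mostly fast muscles, and of soleus, which holds many slow fibers, were split into nuclei and cytoplasm, and RNA of both was measured. Each fraction of each muscle was measured on 3 arrays, 18 in all, and the question was where in the myofiber each RNA is found and whether this depends on the muscle.

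All groups were wild-type female CD1 mice aged 3 months, with no treatment and no transgene. Fibers were freed by collagenase, intact ones were picked by hand, and small pools from 1 or 2 mice were opened with detergent. A low-speed spin pelleted the nuclei, and the supernatant was taken as the cytoplasm. For EDL and soleus, arrays with the same replicate number came from the same mice, in both fractions and both muscles. For TA the mice of the fractions matched only in part, and TA cytoplasm replicates 1 and 2 shared a mouse. Replicates were thus not all independent animals, and a p-value here measures the spread between these samples. EDL and soleus nuclei were hybridised on one slide and EDL and soleus cytoplasm on another, so for these muscles slide and fraction cannot be told apart.

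LncRNAs are transcripts without a long open reading frame. Many stay in the nucleus, where they act on chromatin or on nuclear bodies, while others are exported and act on proteins, mRNAs or microRNAs in the cytoplasm. In the multinucleated myofiber the fraction in which an lncRNA is found is a first clue to its way of action. Pvt1 is transcribed beside the oncogene Myc and is best known from tumours. Tug1 (taurine upregulated gene 1) is a conserved lncRNA that binds the Polycomb repressive complex PRC2. Gt(ROSA)26Sor is the transcript of the Rosa26 gene trap locus, widely used as a site for ubiquitous transgene expression. 2310065F04Rik, also called linc-Myh, is transcribed from the cluster of fast myosin heavy chain genes and is linked to the fast fiber programme.

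The 60-base sequences on the array are shown first, because probes to different parts of a transcript gave different answers. They are written 5′ to 3′ as the scanner files give them, with mm9 coordinates. Capitals mark either the letters AATAAA, the common polyadenylation signal, or, in the first 2 Tug1 probes, the stretch shared with a probe of another name.
Pvt1, A_55_P2155654, chr15:62082471-62082530, forward strand: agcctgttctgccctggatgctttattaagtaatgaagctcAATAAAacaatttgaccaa
Pvt1, A_55_P2051254, chr15:62081020-62081079, forward strand: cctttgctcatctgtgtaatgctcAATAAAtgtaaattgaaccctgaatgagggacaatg
Tug1, A_51_P119401, chr11:3540471-3540530, reverse strand: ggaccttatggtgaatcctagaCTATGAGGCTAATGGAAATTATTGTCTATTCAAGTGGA
Tug1, A_55_P2123716, chr11:3542143-3542202, reverse strand: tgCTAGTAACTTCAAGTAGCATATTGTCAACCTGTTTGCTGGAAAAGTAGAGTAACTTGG
Tug1, A_52_P599162, chr11:3544194-3544253, reverse strand: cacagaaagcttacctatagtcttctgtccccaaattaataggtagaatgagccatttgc
Gt(ROSA)26Sor, A_55_P2203051, chr6:113020400-113020459, reverse strand: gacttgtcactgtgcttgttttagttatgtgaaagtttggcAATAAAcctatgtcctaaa
2310065F04Rik, A_55_P2337033, chr11:66925963-66926022, reverse strand: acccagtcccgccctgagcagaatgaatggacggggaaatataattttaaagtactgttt

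AATAAA, searched on the printed strand, stood in 10.1% of all probes of the array, and in both Pvt1 probes and the Gt(ROSA)26Sor probe here. By the array's annotation, the Pvt1 probes start at bases 3014 and 1563 of NR_003368, the first 2 Tug1 probes at bases 3982 and 2310 of NR_002321, and the third Tug1 probe at base 2250 of the variant NR_002322. The Gt(ROSA)26Sor probe lies at base 1147 of NR_027008 and the 2310065F04Rik probe at base 2664 of the cDNA AK010044, so all 7 lie in annotated transcript sequence. Exons, introns and UTRs were not analysed here. The third Tug1 probe and the 2310065F04Rik probe shared no run of 30 bases with another probe, nor did the second Pvt1 or the Gt(ROSA)26Sor probe. The study also hybridised Pvt1 and Gt(ROSA)26Sor in situ, and none of their array sequences lies within the in situ probe sequence, on either strand.

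Values are log2 normalized intensities, where a step of 1 is a doubling of the signal. Quantile scaling gives every array the same distribution, so a level is relative to the other RNA of the same fraction and not an amount per nucleus or per fiber. Fewer cells of a type and less RNA per cell cannot be told apart in such samples. Between 78.7% and 89.2% of spots per array had a usable value. A probe was called where its adjusted p was under 0.05, and "well above background" is the scanner's own flag. For all probes tested, the median of nuclei minus cytoplasm was -0.05, -0.01 and -0.22 for EDL, soleus and TA. It was -0.29, -0.26 and -0.45 when arrays were aligned on their 75th percentile, and 0.35, 0.96 and -0.16 with no scaling. Of the calls, 43.0%, 46.3% and 36.4% were higher in nuclei, against 31.4%, 32.4% and 29.7% with the 75th percentile and 69.5%, 92.3% and 44.2% with no scaling. Changes below are therefore relative to the bulk of probes. As a check of the fractions, the nuclear lncRNAs Malat1, Neat1, Xist, Kcnq1ot1 and Meg3 were higher in nuclei in 5 of 5 cases in EDL, 5 of 5 in soleus and 4 of 5 in TA, where Xist had a difference of 1.72 (adjusted p = 0.0906).

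Among the 7 probes, 6 could be tested in EDL, of which 3 were higher and 1 lower in nuclei. The background was 20.0% of all probes higher and 26.5% lower. In soleus all 7 were tested, with 2 higher and 2 lower, against 18.7% and 21.7% of all probes. In TA 5 were tested, with 1 higher and 1 lower, against 19.2% and 33.5%. Over the 3 muscles 5 were tested, with 2 higher and 1 lower, against 31.2% and 38.6%. Since a large share of the array differed between the fractions, a call on its own does not set these lncRNAs apart from other RNAs. The direction differed among the 7 probes, in part between probes of the same gene, and the members were not tested against each other.

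**Figure D1:**
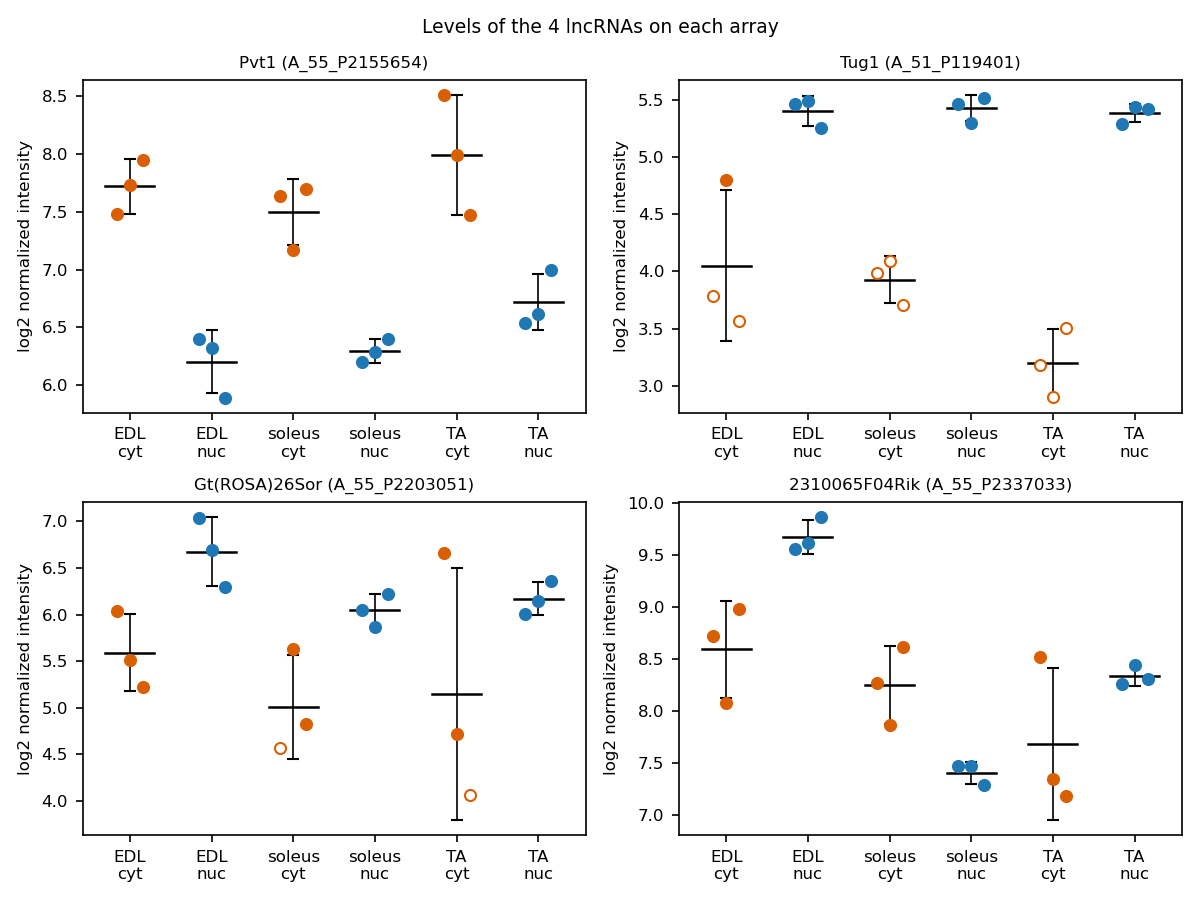
Log2 normalized intensity of the brightest probe of each lncRNA on every array, by muscle and fraction (cyt, cytoplasm; nuc, nuclei); horizontal lines are means and bars the SD of 3 arrays, and open points are arrays on which the probe was not well above background. The brightest probe is the brightest of those with the exact name. By it, Pvt1 lay higher in cytoplasm in each muscle and Tug1 higher in nuclei, and 2310065F04Rik was highest in EDL nuclei and lowest in soleus nuclei.

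Pvt1 was detected in both fractions and was higher in cytoplasm by its brighter probe. This probe, A_55_P2155654, was lower in nuclei in every muscle, and no nuclear array reached any cytoplasmic array of its muscle. In EDL the 3 cytoplasmic arrays read 7.48, 7.73 and 7.95 and the 3 nuclear arrays 6.40, 6.32 and 5.89. In soleus the cytoplasmic arrays read 7.63, 7.17 and 7.70 and the nuclear arrays 6.20, 6.28 and 6.40. In TA the cytoplasmic arrays read 8.51, 7.99 and 7.47 and the nuclear arrays 6.54, 6.61 and 7.00. The signal was well above background on all 18 arrays, which makes Pvt1 and 2310065F04Rik the members measured most firmly.

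The level of Pvt1 in nuclei was lower by 1.52 on the log2 scale in EDL, a 2.86-fold difference (difference -1.52, SE 0.25, adjusted p = 0.000235). Soleus gave -1.21 (SE 0.25, adjusted p = 0.00179) and TA gave -1.28 (SE 0.25, adjusted p = 0.000728). Over the 3 muscles it was -1.33 (SE 0.15, adjusted p = 1.22e-06). The differences of the 3 muscles were not told apart (moderated F test, adjusted p = 0.87). The soleus minus EDL change of the difference was 0.31, with a 95% interval from -0.45 to 1.08, which leaves room for a change of up to 1.08. With no scaling the soleus difference of Pvt1 was -0.082 (adjusted p = 0.8), while EDL and TA stayed past the threshold. All 3 calls held in each of the 18 fits that left out 1 array. All 3 were lost, at unchanged differences, when the nuclear arrays of a muscle were counted as 1 sample.

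The order of the Pvt1 levels was TA cytoplasm 7.99 ± 0.52, EDL cytoplasm 7.72 ± 0.24, soleus cytoplasm 7.50 ± 0.29, TA nuclei 6.72 ± 0.24, soleus nuclei 6.29 ± 0.10 and EDL nuclei 6.20 ± 0.27 (SD, n = 3 each). Neighbours among the cytoplasmic groups overlapped, as did soleus and EDL nuclei. Soleus minus EDL was 0.09 in nuclei (95% interval -0.45 to 0.63, adjusted p = 0.991) and -0.22 in cytoplasm (-0.76 to 0.32, adjusted p = 0.73). TA was hybridised in part on other slides, so its levels are given beside those of EDL and soleus without a test. Within the slide that held TA cytoplasm 2 and all TA nuclei, the cytoplasmic array lay at 7.99 and the nuclear arrays between 6.54 and 7.00, and with slide as a block, a fit that rests on this cytoplasmic array, the TA difference was -1.28 (adjusted p = 0.0171).

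The second Pvt1 probe, A_55_P2051254, lies upstream in the same transcript and gave no call under the reported processing. It was well above background on none of the EDL arrays, on 1 of 3 soleus cytoplasm arrays, on 2 of 3 TA cytoplasm arrays and on all soleus and TA nuclear arrays. In soleus the cytoplasmic arrays with a value read 4.83 and 2.61 and the nuclear arrays 4.50, 5.09 and 5.12, a difference of 1.19 (SE 0.56, adjusted p = 0.108). In TA it read 3.16, 4.18 and 4.96 in cytoplasm against 4.97, 4.40 and 4.80 in nuclei, a difference of 0.62 (SE 0.50, adjusted p = 0.314). The groups overlapped in both muscles. Its sign was thus opposite to that of the brighter probe, at a signal near background and with intervals that reach from -0.02 to 2.39 in soleus and from -0.46 to 1.70 in TA. Over the muscles it was 0.72 (adjusted p = 0.0549), and it was called there in the authors' table (1.47, adjusted p = 0.00718) and with no scaling (0.93, adjusted p = 0.00731), as well as without soleus nuclei replicate 1 (0.78, adjusted p = 0.0499) or TA cytoplasm replicate 3 (0.87, adjusted p = 0.0206). In soleus it was called with no scaling (1.93, adjusted p = 0.00349).

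**Figure D2:**
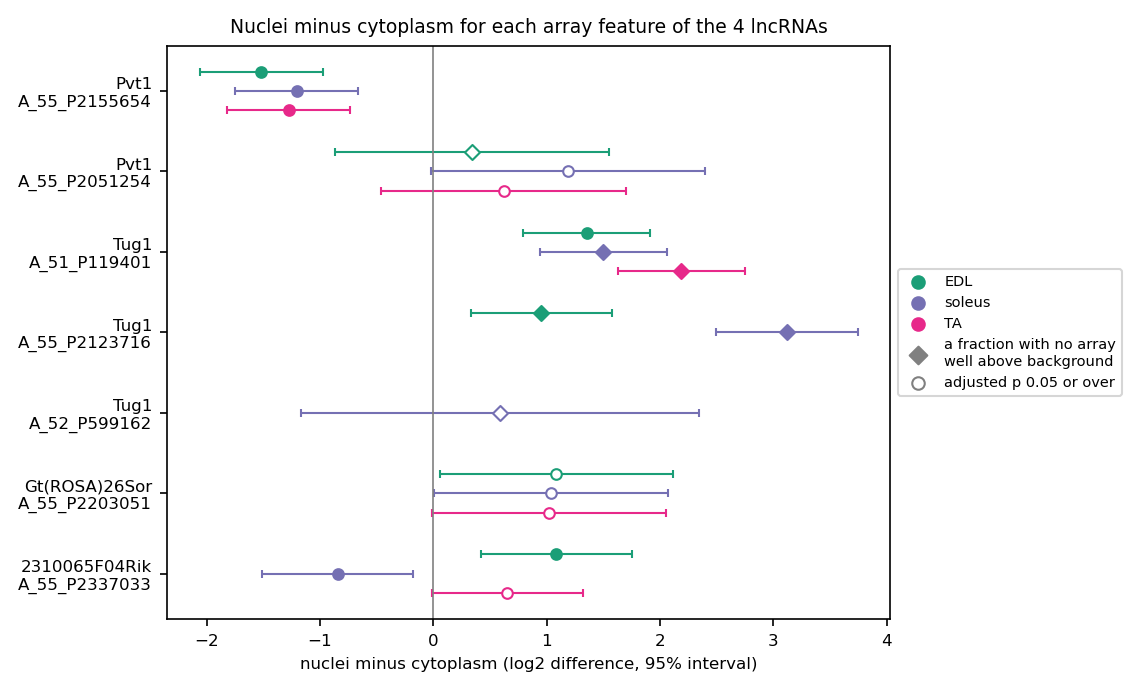
Nuclei minus cytoplasm (log2 difference) with the 95% interval for each of the 7 probes in the muscles where it could be tested; filled symbols passed an adjusted p of 0.05 and diamonds mark a comparison in which a fraction had no array well above background. The brighter Pvt1 probe lies left of 0 in all 3 muscles, the first Tug1 probe lies right of 0, and 2310065F04Rik changes side between EDL and soleus.

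The array holds 16 further probes along the Pvt1 locus under names of intergenic transcripts on the same strand. Of the 14 that could be tested, 6, 3 and 7 were lower in nuclei for EDL, soleus and TA, against 26.5%, 21.7% and 33.5% of all probes, and none was higher. The soleus count is thus near the share of the whole array. Over the 3 muscles 11 of 14 were lower, against 38.6% of all probes, with a median difference of -0.79, against -0.08 for all probes. One of them, A_30_P01029562, has the same 60 bases as A_55_P2155654 and serves as a second measurement of it. It gave -1.64 in EDL, -1.26 in soleus and -1.20 in TA, close to the values above. Among the other 15, the lowest TA difference was that of A_30_P01031174 at -1.57 (adjusted p = 0.000693), and the highest difference over the muscles that of A_30_P01029551 at 0.13 (adjusted p = 0.457). In these names no soleus minus EDL difference was called in either fraction.

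Myc, the transcription factor gene beside Pvt1, was on the nuclear side. Its brightest probe lies 261 kb from the Pvt1 probe on the same strand. Myc was higher in nuclei, with 1.63 for EDL (adjusted p = 0.000338), 1.40 for soleus (adjusted p = 0.00141) and 1.21 for TA (adjusted p = 0.00239), opposite in sign to Pvt1. Of the 6 genes that the study followed together with Pvt1 (Myc, Bcl2, Bax, Bak1, Mfn1 and Becn1), 2 were higher and 1 lower in nuclei in each muscle. Mfn1, which drives fusion of mitochondria, was higher by 0.90, 0.92 and 1.60 in EDL, soleus and TA. The transcript of the anti-apoptotic gene Bcl2 was lower, by -1.21, -0.92 and -1.34. Bax and Bak1, its pro-apoptotic relatives, and the autophagy gene Becn1 gave differences between -0.39 and 0.48 and no call. The list's median over the 3 muscles was 0.06. None of the 6 was called between soleus and EDL in either fraction.

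Tug1 was higher in nuclei by the brightest of the 3 probes with that exact name, A_51_P119401. Brighter probes named TUG1, 208 and 268 bases further toward the 3′ end, gave no call in any muscle, as set out below. The probe A_51_P119401 is printed at 10 spots per array. In the nuclear arrays 9 or all 10 spots were usable and all 10 stood well above background, whereas among the cytoplasmic arrays EDL replicate 2 did so on 9 spots and the others on 0 to 2. In EDL the cytoplasmic arrays read 3.78, 4.80 and 3.57 and the nuclear arrays 5.47, 5.49 and 5.25. In soleus they read 3.99, 4.10 and 3.70 against 5.47, 5.30 and 5.52. In TA they read 3.18, 2.91 and 3.51 against 5.29, 5.44 and 5.42. All nuclear arrays lay above all cytoplasmic arrays. Spots without a usable value were left out of the mean, so a cytoplasmic value is the mean of its brighter spots.

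In EDL, with 1 of 3 cytoplasmic arrays well above background, nuclei exceeded cytoplasm by 1.35 (SE 0.26, adjusted p = 0.000746), a fitted value that rests partly on signal near background. In soleus and TA no cytoplasmic array was well above background, so only a lower bound holds: the level was at least 2.04-fold higher in soleus nuclei (adjusted p = 0.000465) and at least 2.32-fold higher in TA nuclei (adjusted p = 1.48e-05). These bounds set the mean of the nuclear arrays against the lowest level that counted as well above background on each cytoplasmic array. The adjusted p-values beside them are those of the fitted differences and do not test the bounds. A dependence on the muscle was not called (adjusted p = 0.379), and the order of the 3 muscles cannot be read from cytoplasmic values near background. Among nuclei the means were 5.43 ± 0.11 in soleus, 5.40 ± 0.13 in EDL and 5.38 ± 0.08 in TA (SD, n = 3 each), and their ranges overlapped. Soleus minus EDL in nuclei was 0.02, with a 95% interval from -0.54 to 0.58. The nuclei minus cytoplasm calls in EDL and soleus were lost when the nuclear arrays of a muscle were counted as 1 sample.

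The 10 spots give the error within an array. An array mean averages up to 10 spots, so the SD between single spots and that between array means cannot be compared directly. Between spots the SD was 0.22 to 0.27 in the nuclear groups, and between the 3 array means it was 0.08 to 0.13. In cytoplasm the SD between spots was 0.31 to 0.60 and that between array means 0.20 to 0.66.

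The second Tug1 probe, A_55_P2123716, had a usable value on no TA cytoplasm array, and none of its cytoplasmic arrays was well above background. In EDL it read 4.51 and 3.75 in cytoplasm, with no value on the third array, and 4.85, 5.47 and 4.93 in nuclei. In soleus it read 2.40 and 2.25 in cytoplasm, again with no value on the third, and 5.33, 5.42 and 5.58 in nuclei. In TA only the nuclei had values, 4.37, 4.75 and 4.90. Nuclei stood above cytoplasm in both muscles with values, and the bounds were at least 1.77-fold in EDL (adjusted p = 0.0172), at least 2.07-fold in soleus (adjusted p = 1.37e-05) and at least 1.42-fold in TA, where no test was possible. Here too the adjusted p-values belong to the fitted differences and not to the bounds. The EDL call was lost with the replicate number as a block (adjusted p = 0.0528), with the 75th percentile (0.47, adjusted p = 0.177) and without EDL nuclei replicate 2 (0.76, adjusted p = 0.0646). The fit also called soleus cytoplasm lower than EDL cytoplasm, but no array of either group was well above background, so no fold is given. The third probe, A_52_P599162, in a variant of the transcript, was well above background on 1 array, soleus nuclei replicate 3, where it read 4.44. Its soleus difference was 0.59 (SE 0.75, adjusted p = 0.566), and EDL and TA had too few values.

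**Figure D3:**
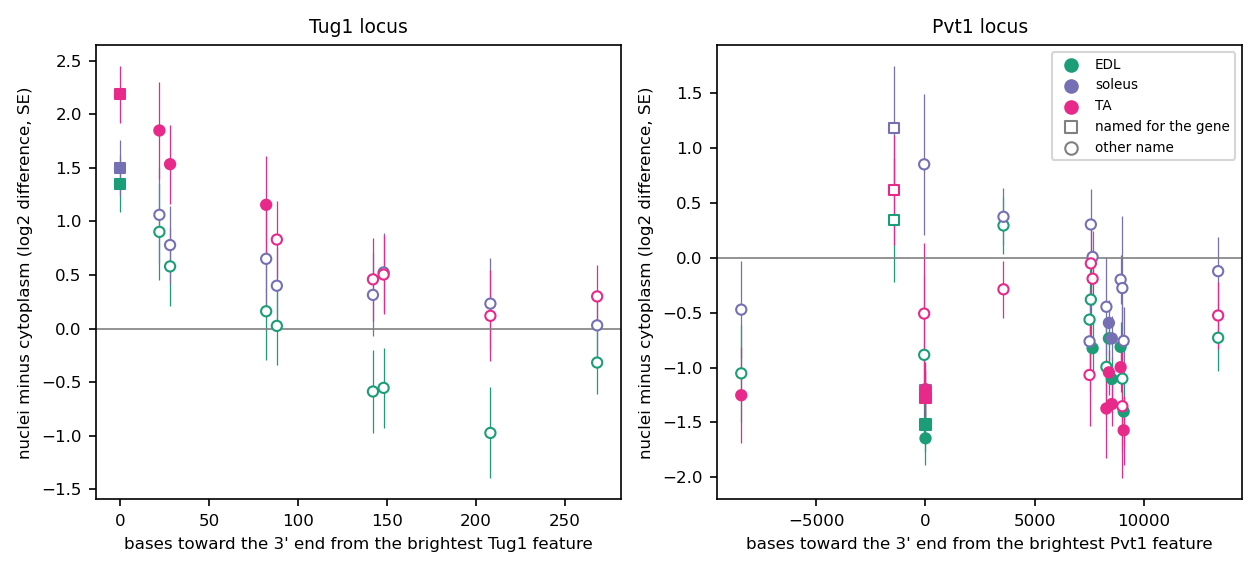
Nuclei minus cytoplasm (log2 difference, bars are the SE) for probes along the Tug1 locus (left) and the Pvt1 locus (right), against the distance in bases toward the 3′ end from the brightest probe of the gene; squares are probes named for the gene, circles probes of other names on the same strand, and filled symbols passed an adjusted p of 0.05. At 268 bases from the first Tug1 probe the difference is -0.32, 0.03 and 0.30 in EDL, soleus and TA; that of the first probe itself, drawn at the fitted 1.35, 1.50 and 2.19, is only a lower bound in soleus and TA, where no cytoplasmic array was well above background. Most Pvt1 probes lie below 0. The left panel shows only the first Tug1 probe and probes up to 268 bases 3′ of it. The other named Tug1 probes and all probes on the 5′ side are not drawn.

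Among probes placed further toward the 3′ end of Tug1, 3 were called higher in TA nuclei, all within 82 bases of the first Tug1 probe, and none in EDL or soleus. The array holds 24 probes of other names on the Tug1 strand, 5 of them named TUG1, and 8 of the 24 start within 268 bases 3′ of A_51_P119401. The nearest, A_30_P01026392, starts 22 bases further and shares 38 bases with it (the capitals above), and its differences were 0.90, 1.06 and 1.85 in EDL, soleus and TA, of which that in TA was called (adjusted p = 0.00294). A_30_P01017489, 28 bases further, gave 0.58, 0.78 and 1.53, again with a call in TA (adjusted p = 0.00268). At 82 bases A_30_P01024255 gave 0.16, 0.65 and 1.16, called in TA (adjusted p = 0.0428). Each of these 3 probes was well above background on 1 of 3 TA cytoplasm arrays. At 88 bases A_30_P01020952 gave 0.03, 0.40 and 0.83 with no call. At 208 bases A_30_P01033104 gave -0.97, 0.23 and 0.12, and at 268 bases A_30_P01032690 gave -0.32, 0.03 and 0.30, with no call in any muscle. The latter pair was well above background on all 18 arrays, cytoplasm included. The difference was lower at 208 and 268 bases than at the first Tug1 probe in all 3 muscles, though not at each step between, a description over probes of which many overlap and all share the labelled RNA.

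On the other side, toward the 5′ end, A_30_P01020465 shares 58 bases with the second Tug1 probe and was higher in nuclei by 1.09 in EDL (adjusted p = 0.0106), where 1 cytoplasmic array was well above background. It was also called in soleus and in TA, where no cytoplasmic array was. Of the 24 probes of other names, 16 could be tested in EDL, 17 in soleus and 16 in TA. In EDL 2 were higher and none lower, in soleus 2 were higher and 1 lower, and in TA 6 were higher and 1 lower. The lowest called in soleus was A_30_P01023199, which lies 5′ of all 3 Tug1 probes, at -1.49 in soleus (adjusted p = 0.00865). Other probes 5′ of all 3 were, like it, brighter than A_30_P01020465 and well above background on every array. A_55_P2072315 gave 0.36, 0.07 and 0.50 in EDL, soleus and TA, called in TA (adjusted p = 0.0249). A_30_P01020674 gave 0.69, 0.17 and 0.69, called in EDL (adjusted p = 0.0358) and TA (adjusted p = 0.0337). A_30_P01023757 gave -0.22, 0.05 and -0.45 with no call. On the whole array 20.0%, 18.7% and 19.2% of probes were higher in EDL, soleus and TA nuclei, and 26.5%, 21.7% and 33.5% were lower. The share called higher along the locus was thus below that of the array in EDL and soleus and above it in TA. The share called lower was below that of the array in each muscle. Some probes of the locus were higher in nuclei and others were not.

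Tug1 binds PRC2, and the genes of its core were examined beside it. Suz12 was higher in nuclei in EDL by 1.01 (adjusted p = 0.0399) and in TA by 2.30 (adjusted p = 0.000173). In soleus it was 0.71 (adjusted p = 0.149). Ezh2, the methyltransferase, was well above background on no cytoplasmic array, and on 3 of 3 nuclear arrays in EDL and soleus and 2 of 3 in TA. Eed gave differences of 0.61, 0.68 and 0.35 and Rbbp4 of 0.17, 0.29 and 0.57 with no call in a single muscle. Ppargc1a, a coactivator of mitochondrial genes reported as a Tug1 partner in kidney, was higher in TA nuclei by 1.12 (adjusted p = 0.000788) and gave -0.26 in EDL and 0.26 in soleus. Of this list of 5, 1 of 4 was called in EDL, 1 of 5 in soleus and 3 of 5 in TA, all higher. The shares of all probes called higher were 20.0%, 18.7% and 19.2%, so the EDL and soleus counts are near those of the whole array. The genes beside Tug1 differed from each other: Smtn, which encodes smoothelin, was higher in nuclei by 1.19, 0.98 and 1.06, and Morc2a, on the opposite strand, gave 0.20, 0.56 and -0.02, with a call in soleus (adjusted p = 0.0181).

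Gt(ROSA)26Sor was higher in nuclei over the 3 muscles, by 1.05 (SE 0.28, adjusted p = 0.00357), a 2.07-fold difference. The probe is printed at 2 spots. In EDL the cytoplasmic arrays read 6.04, 5.52 and 5.22 and the nuclear arrays 7.03, 6.69 and 6.30. In soleus the cytoplasmic arrays read 4.57, 5.63 and 4.82, the first of them not well above background, and the nuclear arrays 6.05, 5.87 and 6.22. In TA the cytoplasmic arrays read 6.66, 4.72 and 4.07, the last not well above background, and the nuclear arrays 6.01, 6.14 and 6.36. Nuclei lay above cytoplasm without overlap in EDL and soleus, while in TA the cytoplasmic replicate 1 lay above all nuclear arrays.

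Within single muscles the differences of Gt(ROSA)26Sor were near 1 and none was called: 1.09 for EDL (adjusted p = 0.0779), 1.04 for soleus (adjusted p = 0.1) and 1.02 for TA (adjusted p = 0.0881), each with an SE of 0.48. A dependence on the muscle was not called (adjusted p = 0.999). TA cytoplasm replicate 1 was the only TA sample on the slide of the EDL and soleus cytoplasm. Without it the TA difference was 1.79 (adjusted p = 0.000667), and EDL and soleus, whose error estimate shares this array, were called too (adjusted p = 0.00734 and 0.0113). With slide as a block, a fit that rests on TA cytoplasm replicate 2 alone for the cytoplasm, the TA difference was 1.45. The call over the muscles was lost when the nuclear arrays of a muscle were counted as 1 sample (adjusted p = 0.108).

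In order, Gt(ROSA)26Sor read 6.68 ± 0.37 in EDL nuclei, 6.17 ± 0.18 in TA nuclei, 6.04 ± 0.17 in soleus nuclei, 5.59 ± 0.41 in EDL cytoplasm, 5.15 ± 1.35 in TA cytoplasm and 5.01 ± 0.56 in soleus cytoplasm (SD, n = 3 each), and every neighbouring pair overlapped. Soleus minus EDL was -0.63 in nuclei (95% interval -1.66 to 0.40) and -0.58 in cytoplasm (-1.61 to 0.45), with adjusted p = 0.833 and 0.611. The search for probes of other names covered only the Gt(ROSA)26Sor probe and 1000 bases on either side, on its strand, and found none. Thumpd3, whose brightest probe lies 2.75 kb away on the opposite strand, was higher in nuclei by 1.10 in EDL (adjusted p = 0.0489) and 1.29 in soleus (adjusted p = 0.0268), and gave -0.19 in TA (adjusted p = 0.73). Setd5, a gene of the SET domain family on the other side, was higher in nuclei by 1.19, 1.35 and 1.42 in EDL, soleus and TA.

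2310065F04Rik was the member that differed between muscles. In EDL the cytoplasmic arrays read 8.72, 8.08 and 8.98 and the nuclear arrays 9.55, 9.61 and 9.86. In soleus the cytoplasmic arrays read 8.27, 7.87 and 8.62 and the nuclear arrays 7.47, 7.47 and 7.29. In TA the cytoplasmic arrays read 8.52, 7.34 and 7.19 and the nuclear arrays 8.26, 8.44 and 8.31. Nuclei lay above cytoplasm on every EDL array and below it on every soleus array, and in TA the groups overlapped through cytoplasmic replicate 1.

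In EDL 2310065F04Rik was higher in nuclei by 1.08 (SE 0.31, adjusted p = 0.0105). In soleus it was lower in nuclei, with a difference of -0.84 (SE 0.31, adjusted p = 0.043). In TA the difference was 0.65 (adjusted p = 0.0923) and 1.08 without TA cytoplasm replicate 1 (adjusted p = 0.00322). With slide as a block it was 0.99, a fit that rests on TA cytoplasm replicate 2 alone for the cytoplasm. The opposite signs of EDL and soleus were tested directly. The moderated F test for a dependence on the muscle gave an adjusted p of 0.0645, where 1.57% of all probes were called, and the soleus minus EDL change of the difference was -1.92 (95% interval -2.87 to -0.98, adjusted p = 0.228), where 0.0286% of all probes were called. Neither passed after adjustment, although the F test did without TA cytoplasm replicate 1 (adjusted p = 0.00937) or 3 (adjusted p = 0.0397). The F test also passed under 4 of 8 other settings (75th percentile, no scaling, normexp and the authors' table), with an adjusted p from 0.0268 to 0.0487 in these. It passed in 2 of 18 fits that each left out 1 array. The soleus minus EDL change passed in none of these settings or fits. The soleus value depended on the scaling, being 0.37 with no scaling (adjusted p = 0.299), and its call was kept in 7 of 18 fits that each left out 1 array. The EDL call was lost without EDL cytoplasm replicate 2, where the difference was 0.83 (adjusted p = 0.0583).

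Between the muscles 2310065F04Rik was lower in soleus than in EDL nuclei, by -2.27 on the log2 scale (SE 0.31, adjusted p = 0.000964), a 4.81-fold difference and the only called one among the 7 probes in nuclei. On the whole array 0.579% of probes were lower and 0.978% higher in soleus nuclei. In cytoplasm the difference was -0.34 (95% interval -1.01 to 0.33, adjusted p = 0.649). In cytoplasm 1 of 6 tested probes was called, against 0.570% of all probes lower and 0.853% higher. It was the second Tug1 probe, which was well above background on no cytoplasmic array. The nuclear call held in each of the 18 fits that left out 1 array, between -2.32 and -2.17. EDL and soleus nuclei shared a slide, and so did EDL and soleus cytoplasm. In order, the levels were 9.67 ± 0.16 in EDL nuclei, 8.59 ± 0.46 in EDL cytoplasm, 8.34 ± 0.09 in TA nuclei, 8.25 ± 0.37 in soleus cytoplasm, 7.68 ± 0.73 in TA cytoplasm and 7.41 ± 0.10 in soleus nuclei (SD, n = 3 each). EDL nuclei stood clear of all others, and each further neighbouring pair overlapped.

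**Figure D4:**
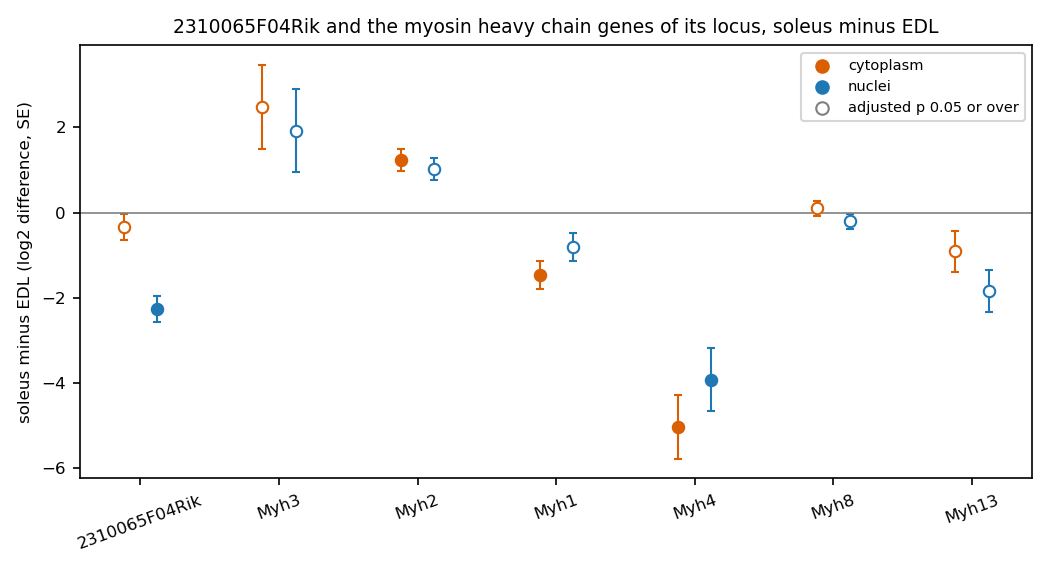
Soleus minus EDL (log2 difference, bars are the SE) in cytoplasm and in nuclei for 2310065F04Rik and the 6 myosin heavy chain genes of its locus; filled points passed an adjusted p of 0.05. 2310065F04Rik was lower in soleus in nuclei (-2.27) but not called in cytoplasm (-0.34), and Myh4 was lower in both (-3.92 and -5.03).

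The myosin heavy chain genes lie on the opposite strand of the same locus, their brightest probes 10.2 kb (Myh3) to 257 kb (Myh13) from that of 2310065F04Rik. Myh4, the fastest isoform, was lower in soleus by -3.92 in nuclei (adjusted p = 0.0113) and by -5.03 in cytoplasm (adjusted p = 0.00231). Myh1 was lower in soleus cytoplasm by -1.46 (adjusted p = 0.0393) and gave -0.82 in nuclei (adjusted p = 0.376). Myh2, the isoform of fast oxidative fibers, was higher in soleus cytoplasm by 1.24 (adjusted p = 0.0312) and gave 1.02 in nuclei (adjusted p = 0.0773). The developmental genes Myh3 and Myh8 and the extraocular gene Myh13 gave no call in either fraction. Between the fractions, Myh1 was higher in nuclei by 0.98, 1.62 and 1.32 in EDL, soleus and TA, Myh2 in TA nuclei by 1.41, Myh8 in EDL and TA nuclei by 0.67 and 0.86, and Myh13 in EDL nuclei by 2.08 (adjusted p = 0.00296). Myh13 was lower in TA nuclei, where no array was well above background.

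Of the list of 14 genes of the fast programme and its regulators, 1 was lower in soleus nuclei (Myh4), while in soleus cytoplasm 3 were lower and 1 (Myh2) higher. The third gene lower in cytoplasm, beside Myh4 and Myh1, was Pvalb, which encodes the calcium buffer parvalbumin, at -3.12 (adjusted p = 0.00689). The list's median soleus minus EDL difference was -0.42 in nuclei, against 0.02 for all probes. Of the 9 slow genes, 8 were higher in soleus in both fractions, among them Tnni1, the slow troponin I, by 5.68 in nuclei (adjusted p = 0.00218) and 5.47 in cytoplasm (adjusted p = 0.00412). Soleus thus carried the slow genes of its label.

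The RNAs whose levels followed the members most closely over the 18 arrays were named by Pearson's r, among 33897 to 33910 probes measured on every array, as a description with no test, since arrays of a fraction share their source. For Pvt1 they were Mad2l1 (r = 0.98), a mitotic checkpoint gene, Cplx3 (r = 0.98) and Retn (r = 0.98). For Tug1 they were Stat2 (r = 0.98), an unnamed intergenic transcript (r = 0.97) and Ets1 (r = 0.96). For Gt(ROSA)26Sor they were 2 unnamed intergenic transcripts (r = 0.94 and 0.93) and C330013J21Rik (r = 0.92). For 2310065F04Rik they were Gdap1 (r = 0.88), Prss23 (r = 0.87) and an unannotated probe (r = 0.87). Gdap1, which encodes a protein of the outer mitochondrial membrane, gave 1.25 for EDL, -0.75 for soleus and 0.65 for TA. It was chosen for its likeness over these same arrays, so its shared change of side is not a separate observation.

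Markers of other cell types moved with the fractions, and their part in the results was not tested. The 5 connective tissue markers were higher in nuclei in 5 of 5 cases in each muscle, with a summed intensity of 19285 to 44943 in cytoplasmic and 37534 to 73266 in nuclear arrays. Of 6 endothelial markers 4, 1 and 6 were higher in EDL, soleus and TA nuclei (1820 to 6631 against 5621 to 8801). Of 4 Schwann cell markers 2, 2 and 3 were higher (241 to 698 against 591 to 1631). The 5 macrophage markers were lower in 2, 1 and 3 cases (3005 to 7188 against 2593 to 2997). Of 3 erythroid markers 0, 3 and 0 were lower and 2 were higher in TA (8120 to 27330 against 6166 to 12487). Of 3 smooth muscle markers 1 was higher in each muscle and 1 lower in EDL and TA (2323 to 16852 against 2804 to 21655). Of 4 satellite cell markers only Vcam1 was called, in EDL, and Myf5 was well above background on no array (118 to 6056 against 152 to 4837). The sums of these last 2 lists were high in TA. For satellite cells they were 152 to 190, 245 to 274 and 3938 to 4837 in EDL, soleus and TA nuclei. For smooth muscle they were 3006 to 3039, 2804 to 3000 and 13880 to 21655. TA cytoplasm arrays also differed from each other, at 152 to 6056 and 2819 to 16852. The bearing of this on the TA differences was not tested. The 5 myofiber markers were higher in nuclei in 4, 2 and 4 cases (36820 to 77991 against 54288 to 93037). Of the myofiber markers, Ckm was lower in soleus than in EDL nuclei by -1.02 (adjusted p = 0.00937), and Mb, the oxygen store myoglobin, was higher in soleus by 0.98 in nuclei and 1.10 in cytoplasm.

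**Figure D5:**
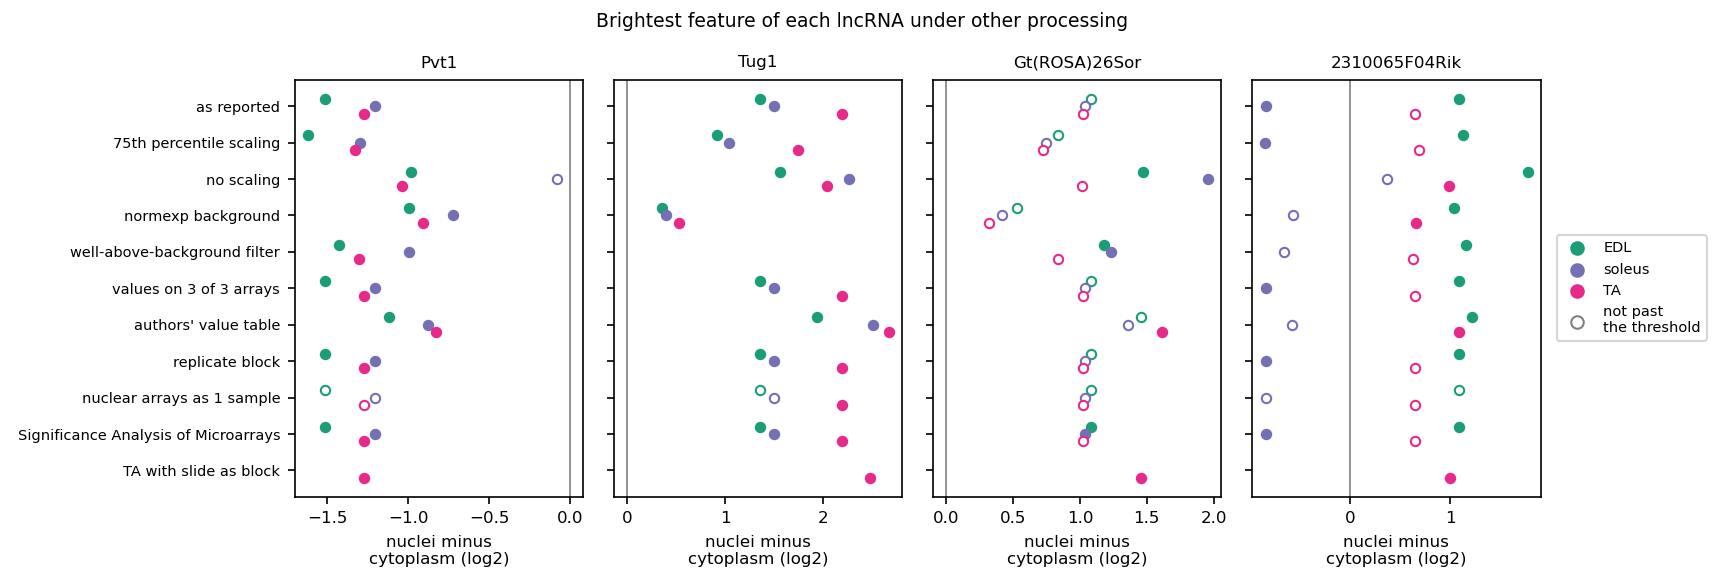
Nuclei minus cytoplasm (log2 difference) of the brightest probe of each lncRNA in EDL, soleus and TA under the reported processing (top row) and each alternative that could be fitted; filled points passed the test's threshold. By the brightest probe with the exact name, Pvt1 stays at or below -0.082 and Tug1 above 0 in every row. 2310065F04Rik in soleus lies at -0.84 as reported and at 0.37 with no scaling.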

How the data were processed

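RNA of 18 samples was labelled with Cy3 and hybridised to single-colour Agilent arrays. Per the file headers, the deposited intensities were extracted with Agilent Feature Extraction (10.7.3.1 in the submitters' processing notes) and mapped to mm9. The authors also deposited a table of quantile-normalized intensities, filled for 3687 spots, which included all 7 member probes; it was used as an alternative. Its values correlated with the scanner values of the same spots at r from 0.995 to 1.00.

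From the deposited processed intensity, log2 values were taken. Control spots, spots not positive and significant, and outlier spots were left out. The 18 arrays were quantile normalized, and spots of a probe were averaged (59305 spots, 55681 probes). Groups came from the sample titles. limma 3.58.1 in R 4.3.3 fitted 6 group means with moderated variances (prior degrees of freedom 3.27). A probe was tested where each group had at least 2 of 3 values. P-values are two-sided, with Benjamini-Hochberg adjustment over all probes tested, and the threshold was 0.05. A probe with several spots counted as well above background where most of them did. The fits were tested on simulated data. Figures were drawn with matplotlib 3.10.9.

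The members, gene lists and tests were chosen with earlier results of these data known. Single values of some listed genes are not reported here. All member probes are named; neighbours, locus probes and lists follow fixed rules, with each gene represented by its brightest probe, lists of pathways and neighbours of up to 8 genes named in full, longer lists by their largest called differences, and cell type markers given mainly as counts. Locus probes lie within 1000 bases of the array's own transcript span. The 3 closest patterns were sought among probes with a value on all arrays and well above background on at least 9.

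By the labels, equal replicate numbers of EDL and soleus mark the same mice. Deviations of cytoplasm and nuclei with the same number correlated between -0.02 and 0.04 in EDL and soleus and between -0.09 and 0.13 in TA. Alternatives were other scalings, background corrections and filters, the authors' table, the replicate block, nuclear arrays counted as 1 sample, Significance Analysis of Microarrays as named in the methods, slide as a block in TA, and each array left out. The number of arrays limits the precision.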

Additional observations from a re-analysis of the deposited data

Results flagged for a closer look

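2310065F04Rik was singled out because its 2 muscles on shared slides moved in opposite ways: every EDL nuclear array lay above every EDL cytoplasmic array, and every soleus nuclear array below every soleus cytoplasmic array. The soleus minus EDL change of the nuclei minus cytoplasm difference was -1.92 on the log2 scale. Tested directly, it did not pass after adjustment over all probes (adjusted p = 0.228), nor under any other setting. The F test over the 3 muscles did not pass either (adjusted p = 0.0645), though it passed under 4 of 8 other settings (adjusted p from 0.0268 to 0.0487). Groups of 3 arrays are too small for a search for single outlying arrays.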

How the results depend on the processing

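The brightest probes were followed through every alternative. Averaging each muscle's nuclear arrays to 1 sample ended the most calls: for Pvt1 in EDL (-1.52), soleus (-1.21) and TA (-1.28), for Tug1 in EDL (1.35) and soleus (1.50), for 2310065F04Rik in EDL (1.08) and soleus (-0.84) and for Gt(ROSA)26Sor over the muscles (1.05). Calls over all probes then fell to 3158, 1408 and 4391 in EDL, soleus and TA, from 20328, 17594 and 23018, and to 16181 from 28296 over the muscles. They were 27107 in soleus with no scaling and 9274 in TA with Significance Analysis of Microarrays, and 1284, 1185, 1478 and 2049 of 3668 probes in the authors' table, which tests fewer probes.

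With no scaling, Pvt1 in soleus lost its call (-0.082), 2310065F04Rik in soleus turned to 0.37, and calls were gained for 2310065F04Rik in TA (0.98) and over the muscles (1.04) and for Gt(ROSA)26Sor in EDL (1.47) and soleus (1.96). The authors' table ended the call of 2310065F04Rik in soleus (-0.58) and made calls for it in TA (1.08) and over the muscles (0.57), and for Gt(ROSA)26Sor in TA (1.61). Normexp ended the call of 2310065F04Rik in soleus (-0.57) and made calls for it in TA (0.65) and over the muscles (0.37). With normexp, whose offset draws dim probes together, Tug1 was 0.36, 0.39 and 0.53 in EDL, soleus and TA and Gt(ROSA)26Sor 0.42 over the muscles, still called. Keeping only spots well above background also ended the call of 2310065F04Rik in soleus (-0.65), and made calls for Gt(ROSA)26Sor in EDL (1.18) and soleus (1.23). Significance Analysis of Microarrays called Gt(ROSA)26Sor in EDL (1.09) and soleus (1.04). Slide as a block in TA, which rests on TA cytoplasm replicate 2 alone for the cytoplasm, gave 1.45 for Gt(ROSA)26Sor and 0.99 for 2310065F04Rik. The adjusted p for a dependence of 2310065F04Rik on the muscle was 0.0479 with the 75th percentile, 0.0487 in the authors' table, 0.0461 with no scaling and 0.0268 with normexp. In the remaining settings it was not under 0.05. The cause of these changes was not tested.

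The replicate block changed no call of a brightest probe (Pvt1 in EDL -1.52, adjusted p = 0.00144; 2310065F04Rik in soleus nuclei against EDL -2.27, adjusted p = 0.0029). Sign changes among uncalled values were those of Gt(ROSA)26Sor for the soleus minus EDL change (0.49 with no scaling and 0.054 with the stricter filter), of Tug1 for soleus minus EDL in nuclei (-0.0086 with the 75th percentile), of A_55_P2051254 in EDL (-0.25 with the 75th percentile) and for soleus minus EDL in cytoplasm (-0.26 with no scaling), and of A_52_P599162 in soleus (-0.084 with the 75th percentile) and for soleus minus EDL in nuclei (0.12 with no scaling, 0.00069 with normexp).

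Leaving out each array in turn gave, for 2310065F04Rik, 0.83 to 1.28 in EDL, -1.03 to -0.66 in soleus, 0.40 to 1.08 in TA, 0.21 to 0.44 over the muscles, and an adjusted p of 0.00937 to 0.161 for the dependence on the muscle. For Gt(ROSA)26Sor it gave 0.90 to 1.31 in EDL, 0.82 to 1.35 in soleus, 0.49 to 1.79 in TA and -0.27 to 0.27 for the soleus minus EDL change. For Tug1 this change was -0.23 to 0.39, and soleus minus EDL was -0.052 to 0.087 in nuclei and -0.37 to 0.25 in cytoplasm. For Pvt1 soleus minus EDL in nuclei was -0.065 to 0.19, and for A_52_P599162 it was -0.57 to 0.24. Tug1 had no value under the stricter filter on dim spots where the cytoplasm was not well above background, and the third Tug1 probe had none in EDL and TA.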
